A study of Schizosaccharomyces pombe with 6 samples.

Results

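Some protein-coding genes of the fission yeast Schizosaccharomyces pombe have long leaders, the stretch of transcript between the transcript start and the start codon. Transcription start sites inside such leaders were examined here in data from CAGE (cap analysis of gene expression). The method reads tags from the capped 5′ ends of RNAs, and neighbouring tags of a strand form a tag cluster. A gene was taken when its annotated transcript start and start codon lay 500 bp or more apart, which held for 297 of 5113 protein-coding genes. Its leader clusters were those on its strand with their summit, the position of most tags, from 50 bp downstream of the transcript start to the start codon. That gave 1873 of the 108138 deposited clusters, in 290 of the 297 genes. No measured level entered the choice. Leaders had a median length of 735 bp and reached 2778 bp in zfs1, 69 were 1000 bp or longer and 28 held an annotated intron.

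Whole cells of 2 strains were measured, with 3 libraries each. The wild type, strain Hu0029, is h- ade6-M210 leu1-32 ura4-D18. The double mutant, strain Hu2000, has the same mating type and auxotrophic markers and also carries fft2::kan and fft3::hph. Cells grew in YES medium and were harvested in mid-log phase. Cultures are described as grown in duplicate although each strain has 3 libraries, so some libraries may share a culture and p-values measure only the spread between libraries.

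Fft2 and Fft3 are ATPases of the SNF2 family, enzymes that move or remodel nucleosomes, and the series asks whether start sites depend on them. RNA polymerase II usually begins at a purine that follows a pyrimidine, the initiator, downstream of a stretch kept free of nucleosomes. A start inside a leader gives a transcript with a shorter leader and, usually, the same protein. Where the longer leader holds upstream ATG codons, which ribosomes can meet before the start codon, the shorter transcript lacks those it begins behind.

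The sequences at 10 leader start sites that the results turn on are shown first, because their bases at the initiator can be compared. Each is 30 bases of the RNA-like strand, read 5′ to 3′ from the S. pombe reference genome (RefSeq, ASM294v3). Capitals mark the pair of bases at which the cap would lie, which ends 1 bp upstream of the deposited summit. At starts of annotated transcripts that pair was a pyrimidine followed by a purine in 98.4% of 4410 clusters of at least 1 TPM (tags per 1000000 library tags). The rising clusters lay at I:2450821-2450850 in SPAC32A11.02c (minus strand), II:4253101-4253130 in stb3 (plus), III:1603675-1603704 in SPCC777.03c (minus), I:2158721-2158750 in zhf1 (plus) and I:3034789-3034818 in plb2 (plus). The falling clusters lay at I:3034359-3034388 in plb2 (plus), III:1302483-1302512 in srk1 (plus) and I:946394-946423 in puf3 (minus). The most abundant leader cluster, at III:354357-354386 in duc1 (plus), and the one at I:3940017-3940046 in hem1 (plus) passed the test in neither direction.
SPAC32A11.02c, 236 bp into the leader: cctataaagttataatcttTGtacagaatt
stb3, 851 bp: caggagttggtgtttcattTActacatatc
SPCC777.03c, 920 bp: atgactgaactagacaagcCCaaaacccca
zhf1, 435 bp: tttcattctaaatttacctTAttccttttt
plb2, 1004 bp: acatcttacaccttccattTGgtatcttta
plb2, 574 bp: tgcgttaaaaagtttcactTGaactttacc
srk1, 567 bp: tgatgatcagttttgatttCAtctttacct
puf3, 506 bp: cttccaaaagtttttttccCGagctttacc
duc1, 930 bp: ggcagaggaacccacgactTAcctttagcc
hem1, 373 bp: gttggattgtttttttttcTAatttgctca
The pyrimidine-purine pair was present at 9 of these 10 sites, the exception being SPCC777.03c, where the pair is a C followed by a C.

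Library and strain checks came before the comparison. Libraries held 12681899 tags in wild-type replicate 2, 20073002 and 19765004 in wild-type replicates 1 and 3, and 23242897, 23202601 and 19861902 in mutant replicates 1 to 3. Tags inside the coding part of fft2 numbered 272 in the wild type against 8 in the mutant, and those inside fft3 142 and 27. Of the 187 leader clusters tested, wild-type replicate 2 lay more than 2-fold above both other wild-type libraries in 19, and wild-type replicates 1 and 3 did so in 0.

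Most leader clusters were scarce. Only 187, in 122 genes, reached a mean of 1 TPM over the 6 libraries and were tested, and 1686 lay below. A gene had up to 7 tested clusters, as in pma1, the plasma membrane proton pump, and 41 genes had 2 or more. The median wild-type level of a tested cluster was 2.21 TPM and its median width 36 bp. The scarce clusters together held 188 ± 19.4 TPM in the wild type against 279 ± 33.6 TPM in the double mutant (mean ± SD, n = 3, as throughout). These sums are of TPM as deposited, and sums under other scalings of the libraries were not computed. Between 969 and 1110 leader clusters had at least 1 tag in a wild-type library and between 1279 and 1425 in a mutant library, and the shallowest library, wild-type replicate 2, had the fewest.

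The tested sites shared features that played no part in choosing them. The initiator pair was present at 160 of 187 tested summits (85.6%), against 58.1% of the 1686 scarce ones and 23.1% of all genome positions. The motif TATAA lay 50 to 21 bp upstream of 12.3% of tested summits on their own strand and of 10.7% on the other strand. Start clusters had 10.8% and 8.82%, and all 30-base windows of the genome 5.39% and 5.37%. The 30 bases at each of the 187 summits occur once in the genome. Of the tested clusters, 87 lay inside an annotated gene on the other strand, 8 of them in a protein-coding gene, and 10 inside another gene on the same strand, 2 of them protein-coding. Tags of such a same-strand neighbour and of the leader cannot be told apart.

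Double-mutant and wild-type levels were compared with limma on log2(TPM + 0.5), fitted over all 11250 clusters of at least 1 TPM with Benjamini-Hochberg adjustment at 0.05. Of 187 leader clusters 71 rose in the mutant and 23 fell, which is 50.3% changed, beside 46.2% of all clusters (36.9% higher, 9.36% lower). The median log2 change was 0.26 among leader clusters and 0.27 among all clusters. A change of at least 2-fold was called upward in 34 leader clusters (18.2%, beside 23.7% of all clusters) and downward in 10 (5.35%, beside 2.7%). Groups did not overlap in 99 leader clusters (52.9%, beside 55.2%). Leaders of 100 to under 500 bp, the nearest comparison, had 120 of 290 clusters higher and 37 lower, with a median of 0.34. Long-leader sites as a group lay near the background of all clusters. In whole cultures, a higher level in every cell and in a part of the cells cannot be told apart.

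How the calls divide between rises and falls depends on scaling. Deposited values are scaled to library tags, and with median-of-ratios scaling the median of all clusters moved from 0.27 to -0.04. Leader clusters were then 40 higher and 32 lower, and 43 and 34 with TMM scaling, 41 and 33 with edgeR and 39 and 30 with DESeq2. The higher share of called leader clusters went from 75.5% to between 55.4% and 56.5%, and that of all called clusters from 79.8% to between 55.6% and 57.5%.

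The largest rises and falls named were chosen among called clusters whose groups do not overlap, so separated groups are a condition of that choice. Of the 10 largest rises, 6 were at sites below 1 TPM in the wild type. These were zhf1 at 435 bp, top2 at 369 bp, fft3 at 733 bp, SPAC2H10.01, kgd1 and bst1. They passed the filter on the 6-library mean through their mutant values. The same holds for 35 of the 187 tested clusters, while 11 had a mutant mean below 1 TPM and passed through their wild-type values. The filter thus lets in rises at sites faint in the wild type and falls at sites faint in the mutant. The cluster 236 bp into the leader of SPAC32A11.02c, an uncharacterized protein, had 0.996, 2.21 and 0.860 TPM in the 3 wild-type libraries and 27.5, 31.0 and 34.9 TPM in the mutant. All mutant libraries lay more than an order above the highest wild-type library, replicate 2. The log2 change was 4.16 (SE 0.262, limma adjusted p = 3.72e-06) and 4.46 without wild-type replicate 2, while the cluster at the annotated start had 13.9 ± 2.61 and 10.5 ± 2.33 TPM (adjusted p = 0.168). In stb3, which encodes a DNA-binding transcription factor, the cluster 851 bp into the leader had 0.299, 2.37 and 0.658 TPM in the wild type against 14.3, 20.9 and 28.4 TPM in the mutant. The highest wild-type value was that of replicate 2. The log2 change was 3.92 (SE 0.447, adjusted p = 0.000111), and the start cluster had 6.15 ± 0.864 and 5.48 ± 2.14 TPM. Both SPAC32A11.02c and stb3 thus moved from more tags at the annotated start in the wild type to more tags in the leader in the mutant.

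SPCC777.03c, annotated as a cysteine desulfurase of the nifs family, has a leader of 1901 bp with 42 upstream ATG codons. Its cluster at 920 bp had 3.29, 3.23 and 2.43 TPM in the wild type against 43.0, 33.5 and 34.5 TPM in the mutant (log2 3.43, SE 0.171, adjusted p = 1.61e-06). It has 21 of the 42 ATG codons upstream of it, and it lies opposite the coding gene dip5. The clusters at 1033 and 1202 bp rose too, to 2.35 ± 0.232 and 5.99 ± 0.641 TPM. The start cluster fell at the same time from 3.16 ± 0.667 to 0.886 ± 0.289 TPM (log2 -1.40, adjusted p = 0.000726).

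Other large rises were in zhf1, an importer of zinc into the endoplasmic reticulum, at 435 bp (0.845 ± 0.306 to 12.6 ± 1.68 TPM, log2 3.29), and in top2, DNA topoisomerase II. In top2 all 3 tested clusters rose, at 151, 369 and 489 bp of a 501-bp leader. The one at 369 bp had 0.797, 1.10 and 0.607 TPM in the wild type against 6.54, 8.40 and 7.60 TPM in the mutant. Its log2 change was 2.59 (SE 0.192, adjusted p = 7.94e-06), and the top2 start cluster had 62.2 ± 9.68 and 66.6 ± 6.59 TPM (adjusted p = 0.612). SPAC2H10.01, annotated as a transcription factor, rose at 1079 bp from 0.940 ± 0.276 to 8.53 ± 1.98 TPM while its start cluster fell from 19.0 ± 1.18 to 7.95 ± 0.423 TPM. Kgd1, a subunit of the alpha-ketoglutarate dehydrogenase of the tricarboxylic acid cycle, rose at 981 bp from 0.249, 0.710 and 0.202 TPM in the wild-type libraries to 4.78 ± 1.76 TPM. Wild-type replicate 2 was the highest of these, and the log2 change of kgd1 was 2.55 with it and 2.80 without it. Bst1, which removes an acyl group from the inositol of GPI anchors, rose at 95 bp from 1, 2 and 2 tags in the wild-type libraries to 35, 97 and 67 in the mutant.

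A pair of the 10 largest rises needs more care. In SPAC977.17, a protein of the MIP family of membrane channels, the cluster at 815 bp had 0.349, 5.91 and 0.354 TPM in the wild type against 13.9, 13.0 and 12.0 TPM in the mutant. Wild-type replicate 2 stood far above the other 2 wild-type libraries, and the log2 change was 3.01 (adjusted p = 0.00678) with it, 3.98 without it, and 2.20 with an adjusted p of 0.140 in DESeq2. The other is fft3 itself, whose cluster at 733 bp, 23 bp before the start codon, rose from 0.247 ± 0.103 to 5.12 ± 0.541 TPM, with a second rise at 396 bp. The fft3 start cluster went from 69.1 ± 28.98 to 141 ± 46.4 TPM (adjusted p = 0.0335), a call that ended under every other scaling (between 0.0584 and 0.111) and when any 1 library other than replicate 3 of either strain was left out (between 0.0873 and 0.106). The fft3 gene carries hph in the mutant, so starts of the native leader and effects of the inserted cassette cannot be told apart there.

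**Figure D1:**
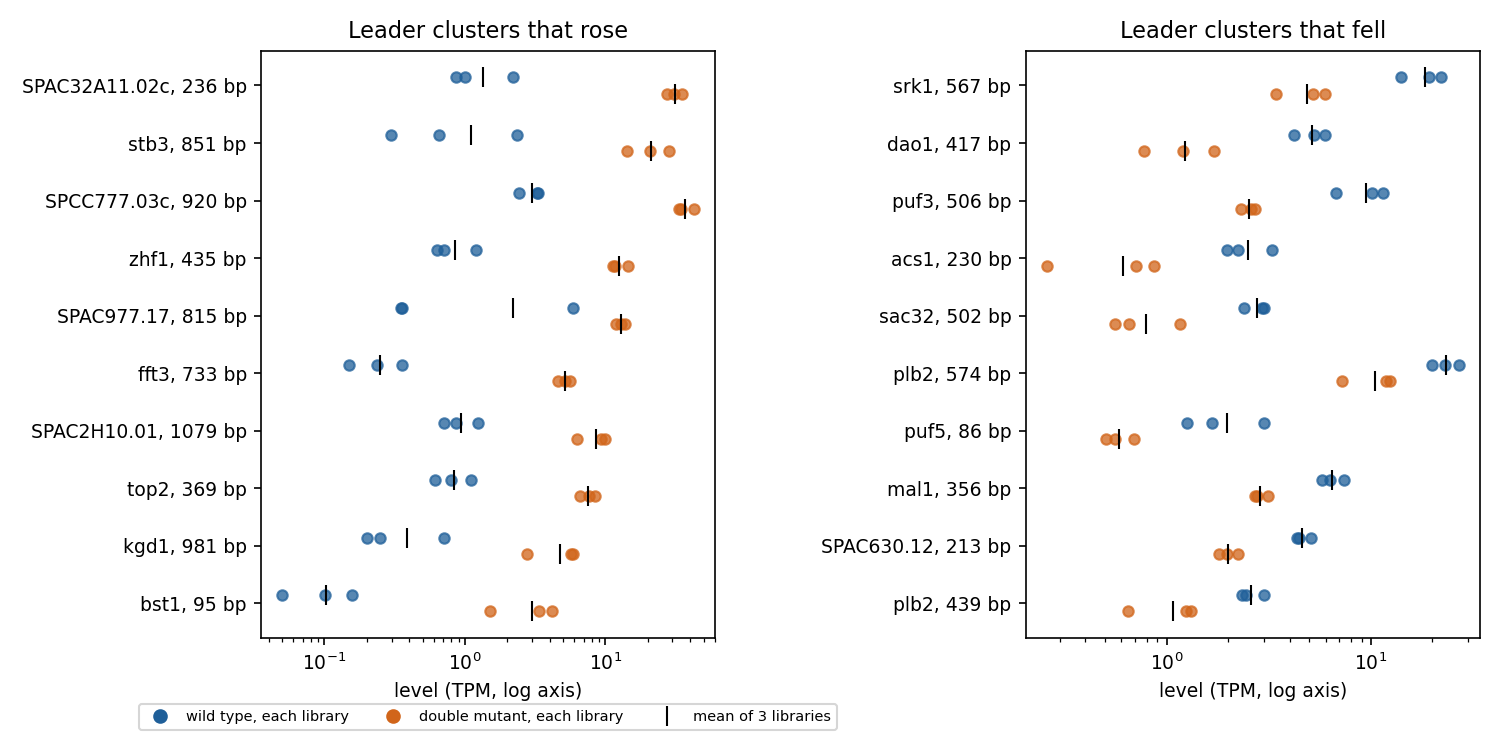
Level of the 10 leader clusters with the largest rise (left) and the 10 with the largest fall (right), in TPM on log axes, with 1 point per library and a bar at the mean of 3 libraries; labels give the gene and the distance of the summit from the transcript start. The clusters were chosen among called ones whose groups do not overlap. In SPAC977.17 a single wild-type library, replicate 2, lies at 5.91 TPM, apart from the others.

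Falls were fewer on the deposited scale (23 against 71), and the largest falls were smaller than the largest rises. The median log2 change was -0.89 among called falls and 0.97 among called rises. Srk1 is a kinase activated by the stress MAP kinase Sty1. Its cluster at 567 bp had 22.1, 14.1 and 19.2 TPM in the wild type against 3.44, 5.95 and 5.19 TPM in the mutant. The log2 change was -1.83 (SE 0.235, adjusted p = 0.000231). The srk1 start cluster had 53.2 ± 17.8 and 59.4 ± 20.3 TPM (adjusted p = 0.737). Puf3 and Puf5 are Pumilio-family proteins, which bind mRNAs. The puf3 cluster at 506 bp had 11.5, 6.78 and 10.1 TPM in the wild type against 2.32, 2.59 and 2.72 TPM in the mutant (log2 -1.68, SE 0.208, adjusted p = 0.000185). In the same gene the start cluster rose from 19.0 ± 4.29 to 41.3 ± 9.69 TPM and a further leader cluster at 614 bp rose from 1.73 ± 0.402 to 4.26 ± 0.554 TPM. The puf5 cluster at 86 bp fell from 1.97 ± 0.903 to 0.584 ± 0.0955 TPM, and its annotated start was too low to test.

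Further large falls were in dao1, mal1, acs1, sac32 and SPAC630.12. Dao1, D-amino acid oxidase, fell at 417 bp from 5.16 ± 0.903 to 1.23 ± 0.469 TPM, at a site inside an annotated leader intron. The maltase gene mal1 fell at 356 bp from 6.47 ± 0.826 to 2.88 ± 0.236 TPM. Acs1, which makes acetyl-CoA from acetate, fell at 230 bp from 2.50 ± 0.698 to 0.608 ± 0.313 TPM, while its start cluster stood at 221 ± 40.7 and 226 ± 11.5 TPM. That acs1 site lies inside the coding gene SPCC191.03c on the same strand. The remaining falls were in sac32, a nuclear export factor, at 502 bp (2.77 ± 0.342 to 0.792 ± 0.325 TPM) and SPAC630.12, a lipid phosphatase, at 213 bp (4.62 ± 0.401 to 2.004 ± 0.220 TPM). The acs1, sac32 and puf5 sites lay below the filter in the mutant and passed it through their wild-type values.

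The phospholipase gene plb2 had changes in both directions within 1 leader of 1076 bp. The cluster at 574 bp had 27.1, 23.0 and 19.9 TPM in the wild type against 7.23, 12.5 and 11.8 TPM in the mutant (log2 -1.14, SE 0.223, adjusted p = 0.00296). The cluster at 1004 bp, 72 bp before the start codon, had 24.2, 22.9 and 25.2 TPM and then 64.4, 70.4 and 76.9 TPM (log2 1.53, SE 0.127, adjusted p = 1.56e-05). The pair stood near 1 level in the wild type and far apart in the mutant. A smaller cluster at 439 bp fell from 2.59 ± 0.353 to 1.07 ± 0.367 TPM, and the start cluster had 125 ± 23.1 and 95.6 ± 16.5 TPM (adjusted p = 0.127). Opposite calls within 1 leader occurred in 3 genes, the others being puf3 and gpa2, a G-protein alpha subunit of glucose sensing. In gpa2 the neighbouring clusters at 610 and 640 bp went from 7.68 ± 2.08 to 4.40 ± 1.39 TPM and from 5.23 ± 1.41 to 9.63 ± 3.08 TPM. Both gpa2 calls ended in part of the alternatives, the rise under every other scaling and tool (adjusted p between 0.0932 and 0.107) and the fall when replicate 1 or 3 of either strain was left out (up to 0.135).

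**Figure D2:**
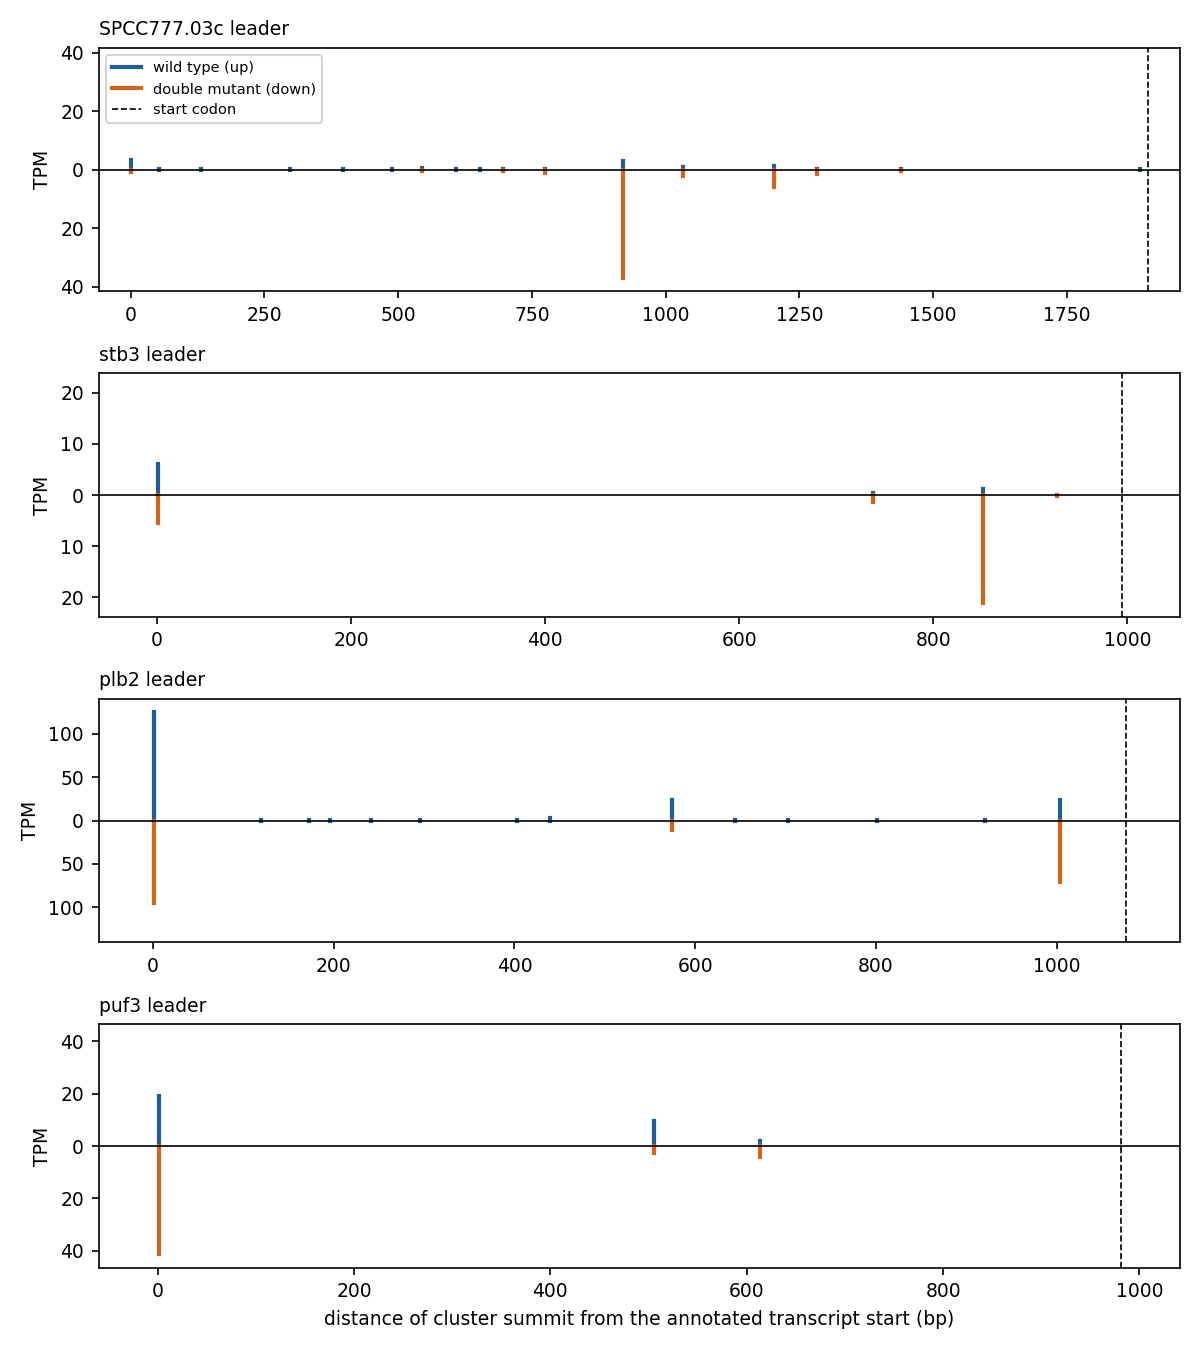
Clusters along the leaders of SPCC777.03c, stb3, plb2 and puf3, placed by the distance of the summit from the annotated transcript start in bp; mean wild-type TPM is drawn upward and mean double-mutant TPM downward, and the dashed line is the start codon. SPCC777.03c and stb3 each gain 1 tall leader site in the mutant, plb2 loses signal at 574 bp and gains it at 1004 bp, and puf3 loses it at 506 bp and gains it at the start.

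The 10 most abundant leader sites were chosen by wild-type level, and most sites above by size of change. Sizes of change are thus not compared between them. The plb2 site at 1004 bp, given above, is among the 10 and rose by log2 1.53. Duc1 had 237, 222 and 274 TPM in the wild type against 373, 269 and 281 TPM in the mutant at 930 bp, with overlapping groups (log2 0.32, adjusted p = 0.129). Its annotated start had only 10.5 ± 1.71 TPM and fell to 4.89 ± 0.0689 TPM. Nep2, which cleaves the ubiquitin-like protein NEDD8 from its targets, had 115, 129 and 118 TPM and then 72.8, 60.7 and 67.1 TPM (log2 -0.85, SE 0.125, adjusted p = 0.000551). The nep2 summit is 57 bp downstream of the annotated start and its cluster also covers that start, so it is a leader site by a few bases. Hem1, the first enzyme of heme synthesis, had 58.3 ± 3.68 and 61.9 ± 11.7 TPM at 373 bp, and dsd1, a desaturase of sphingolipid synthesis, 42.9 ± 2.78 and 36.5 ± 1.51 TPM at 365 bp. The zhf1 cluster at 171 bp had 42.4 ± 11.2 and 34.9 ± 5.66 TPM, in contrast to the rise at 435 bp of the same leader. None of hem1, dsd1 and this zhf1 site passed the test on the deposited scale, and dsd1 and zhf1 passed it downward under the other scalings, the zhf1 site also without wild-type replicate 2 (adjusted p = 0.0496).

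Nde1, an NADH dehydrogenase of mitochondria, rose at 401 bp from 71.9 ± 4.67 to 101 ± 4.18 TPM while its start cluster fell from 305 ± 32.5 to 190.4 ± 4.03 TPM. Its leader cluster is 496 bp wide and reaches past the start codon. Aly2, an arrestin-like protein, rose at 856 bp from 41.2 ± 4.70 to 60.5 ± 11.9 TPM, and the flocculin gene pfl2 at 121 bp from 26.2 ± 2.77 to 36.7 ± 3.65 TPM. The calls of nde1, aly2 and pfl2 ended under each of the other scalings (adjusted p between 0.264 and 0.511) and with no filter on low clusters (between 0.0647 and 0.143). The aly2 call also ended in 4 of 6 fits with 1 library left out, those without either of the first 2 wild-type libraries, mutant replicate 1 or mutant replicate 3 (between 0.0722 and 0.0865). That of pfl2 ended without wild-type replicate 1 or mutant replicate 1 or 3 (between 0.0588 and 0.0782) and with a replicate block (0.0783). In mei2, an RNA-binding protein that commits cells to meiosis, the cluster at 275 bp had 0.249, 79.96 and 0.860 TPM in the wild type against 1.42, 1.72 and 0.755 TPM in the mutant. A single library, wild-type replicate 2, carries that level, and without it the log2 change turned from -1.31 to 0.79 (adjusted p = 0.506 and 0.0847). In edgeR the fall of mei2 passed the test (log2 -4.71, adjusted p = 0.0490). The mei2 start cluster also peaked in that library, with 6.53, 108 and 8.35 TPM in the wild type.

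Leader sites were then set beside the cluster at the annotated start. Of 275 long-leader genes with a tested start cluster, 46 start clusters rose and 29 fell (27.3%), beside 30.3% of the start clusters of all coding genes (17.4% higher, 12.9% lower). The median log2 change was 0.10, against 0.05 for all coding genes. The other scalings gave between 19 and 21 higher and between 71 and 74 lower of these 275. Starts of all coding genes were not counted under those scalings, so whether these counts differ from theirs cannot be said. Of the 71 leader clusters that rose, the start of the same gene rose in 14, fell in 10 and passed the test in neither direction in 43. Of the 23 that fell, the start rose in 2, puf3 and the kinase gene ppk15, fell in 2 and passed in neither direction in 16. Besides SPCC777.03c, SPAC2H10.01 and nde1, a rise in the leader with a fall at the start was seen in scd2, a scaffold of the Cdc42 GTPase, in the glucose receptor gene git3, in the inositol phosphate kinase gene ipk1, in the transporter gene SPCC794.06 and in mug165. The leader rises of git3, ipk1 and mug165 ended under every other scaling (adjusted p between 0.0682 and 0.245). So did the rise of the ppk15 start (between 0.153 and 0.213), and the fall of the scd2 start ended when any 1 library other than mutant replicate 2 was left out (between 0.0628 and 0.117).

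**Figure D3:**
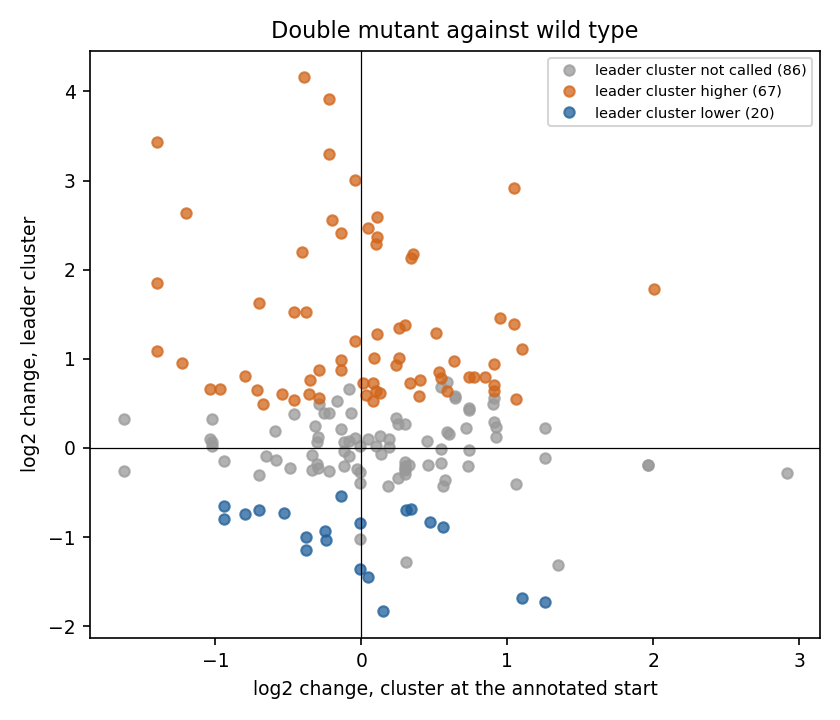
Log2 change (double mutant against wild type) of each tested leader cluster, against that of the cluster at the annotated start of the same gene, for 173 leader clusters with a tested start; colours give the call of the leader cluster. Points with a called rise reach 4.16 on the vertical axis, and the starts of the same genes lie on both sides of 0, at -1.40 in SPCC777.03c and 1.05 in fft3.

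The plain ratio of leader to start tags within a gene does not depend on library scaling. The tested ratio does in part, because 0.5 TPM was added to each sum, and it was not fitted under other scalings. It was tested with limma on log2((leader sum + 0.5)/(start sum + 0.5)) over 1472 coding genes with a leader cluster and a mean of at least 5 TPM. Among 236 long-leader genes the ratio rose in 59 and fell in 19 (33.1%, beside 26.5% of all genes tested). In percent, 25% rose and 8.05% fell, beside 19.4% and 7.13%, with a median of 0.24 against 0.11. With 0.1 TPM added in place of 0.5, the ratio rose in 54 long-leader genes and fell in 10, with a median of 0.39. The counts and median of all genes tested were not taken with 0.1 TPM, so these values have no background beside them. With 0.5 TPM added, leaders of 100 to under 500 bp had 214 higher and 84 lower of 1145. The leader sum exceeded the start sum in 38 long-leader genes in the wild type against 52 in the mutant, 30 of them in both.

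The leader share of a gene's tags rose in SPAC32A11.02c from 6.36%, 17.2% and 5.88% in the wild-type libraries to 78.0%, 72.8% and 74.5% in the mutant (log2 ratio 4.50, SE 0.355, adjusted p = 5.96e-05). In stb3 it rose from 18.6 ± 18.6% to 81.0 ± 3.32%, where wild-type replicate 2 alone had 39.8%. Without that library the log2 ratio was 4.75 in place of 4.01. SPCC777.03c went from 68.4 ± 3.11% to 98.2 ± 0.660%, SPAC2H10.01 from 5.62 ± 1.26% to 51.3 ± 7.47% and kgd1 from 2.01 ± 0.921% to 17.2 ± 5.57%. In SPBC1271.10c, a transporter, the share rose from 0.441 ± 0.291% to 16.0 ± 2.79%, with a leader sum of only 0.946 ± 0.0777 TPM in the mutant and a start that fell from 24.4 ± 2.35 to 5.13 ± 1.44 TPM.

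Shares also fell in genes whose start rose. In fio1, the ferroxidase of iron uptake, the leader share fell from 7.94 ± 0.337% to 1.08 ± 0.193% (log2 ratio -2.98, SE 0.206, adjusted p = 2.82e-05). Its leader sum was 7.02 ± 1.15 and 6.78 ± 1.75 TPM, and its start sum 81.9 ± 17.1 and 650.2 ± 263 TPM. The uncharacterized gene SPBC19C7.04c had the same pattern, with a start sum of 17.1 ± 4.94 and 156 ± 73.5 TPM. In rsp1, which helps place the septum, the share fell from 83.6 ± 5.49% to 51.2 ± 3.52% as the start cluster rose from 1.28 ± 0.438 to 6.31 ± 0.365 TPM. In srk1 it fell from 28.3 ± 9.60% to 8.92 ± 1.15% and in puf3 from 37.8 ± 2.27% to 15.3 ± 3.03%, both with a fall of the leader cluster itself. The fall in mei2 (22.5 ± 17.9% to 6.59 ± 2.71%) passed the test at adjusted p = 0.0235. It ended without mutant replicate 2 (0.0625) or replicate 3 (0.0879), and the log2 ratio went from -1.997 to -1.34 without wild-type replicate 2.

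**Figure D4:**
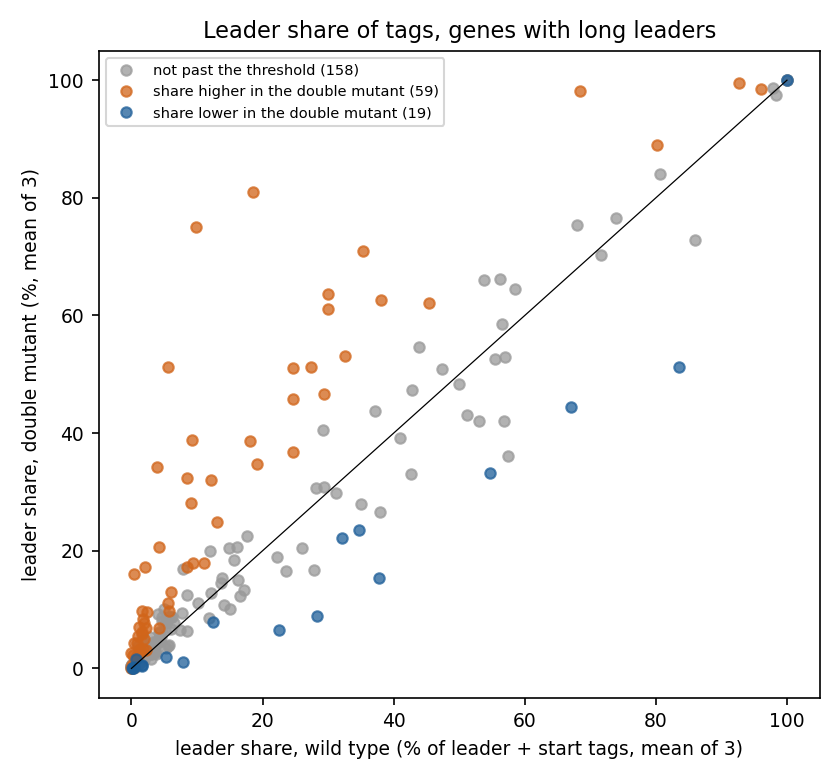
Leader share of the tags at leader plus start for the 236 long-leader genes tested, in percent, as the mean of 3 wild-type libraries (horizontal) and of 3 double-mutant libraries (vertical); the line marks equal shares. Of the genes shown, 59 have a share past the threshold upward and 19 downward.

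Some genes had more tags in leader clusters than at the annotated start in both strains. Duc1 had 96.0 ± 0.686% of its tags in the leader in the wild type against 98.5 ± 0.266% in the mutant. Nep2 had 100% in each library, but its cluster with the summit at 57 bp also covers the annotated start. The limit of 50 bp counts that whole cluster as leader, so the nep2 share does not show use of a separate site. Aly2 had 80.2 ± 3.62% and 89.0 ± 2.54%. SPCC576.02, of the hydantoin racemase family, had 98.4 ± 0.765% and 97.4 ± 0.486%, spread over 5 tested leader clusters of which 3 rose. The strongest of these, 42 bp before the start codon, went from 14.3 ± 1.09 to 23.6 ± 1.35 TPM, and the other 2 rises of SPCC576.02 did not pass once values were scaled by median-of-ratios (adjusted p = 0.0558 and 0.188).

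Zfs1, a zinc finger protein that binds mRNAs, has the longest leader, at 2778 bp, and had 53.8 ± 5.69% and 66.1 ± 6.98% of its tags there (adjusted p = 0.0774). Of its 4 tested leader clusters 3 rose, and the one at 177 bp went from 1.20, 1.03 and 1.32 TPM in the wild type to 6.71, 9.78 and 9.01 TPM in the mutant. The groups were clearly apart (log2 2.41, SE 0.186, adjusted p = 1.00e-05). The abundant zfs1 cluster at 310 bp had 24.1 ± 4.95 and 28.2 ± 6.86 TPM. The next longest leaders, in order, were those of msa1 (2586 bp), SPAC57A7.05 (2271 bp), ste11 (2210 bp) and gsf2 (2040 bp). Msa1, an RNA-binding protein, and ste11, the transcription factor of mating and meiosis, had no leader cluster of 1 TPM. Their leader sums were 1.67 ± 0.224 and 2.57 ± 1.20 TPM in msa1 and 0.670 ± 0.130 and 1.12 ± 0.389 TPM in ste11. None of the clusters tested in SPAC57A7.05 (1) and in the flocculin gene gsf2 (3) passed.

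Of 15 listed genes, mostly regulators, 11 met the rule, zfs1, ste11 and mei2 among them. In cdc13, the mitotic B-type cyclin, the leader cluster at 138 bp rose from 0.951 ± 0.143 to 1.95 ± 0.562 TPM, beside 327 ± 23.1 and 414 ± 70.8 TPM at the start. That cdc13 call ended under every other scaling (adjusted p between 0.0602 and 0.150). In phx1, a stationary-phase transcription factor, the cluster at 203 bp fell from 3.04 ± 0.553 to 1.68 ± 0.116 TPM. The pap1 cluster at 397 bp, in the gene of an oxidative stress transcription factor, had 3.69 ± 0.633 and 2.77 ± 0.524 TPM (adjusted p = 0.164). The other 5 had no leader cluster of 1 TPM. Leader sums were 2.27 ± 0.591 and 2.05 ± 0.483 TPM in the stress transcription factor gene atf1, and 1.55 ± 0.550 and 1.41 ± 0.492 TPM in cdc25, the phosphatase that triggers mitosis. They were 0.251 ± 0.229 and 0.560 ± 0.198 TPM in loz1, a repressor of zinc uptake genes, and 0.187 ± 0.105 and 0.0647 ± 0.0778 TPM in the G1/S cyclin gene cig2. In rst2, a transcription factor of glucose starvation, the leader was listed at 0 in all wild-type libraries, where 3 tags over the group would be 0.0571 TPM.

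By annotated product, the counts were small in every named class, and they are to be read beside the 36.9% higher and 9.36% lower among all clusters. Transcription had 9 tested clusters, of which 3 rose (stb3, SPAC2H10.01 and cuf1, the copper sensor) and 2 fell (phx1 and res1, a subunit of the G1/S factor MBF). The res1 call ended when any 1 library other than wild-type replicate 1 was left out (adjusted p up to 0.136), and that of cuf1 without mutant replicate 3 (0.0568). Kinases, cyclins and phosphatases had 9, of which 1 rose and 2 fell. Transport had 20, with 6 higher and 4 lower. RNA binding and translation had 4, with 1 higher and 2 lower. Both clusters tested among small GTPases and their regulators rose, in scd2 and in gap1, a GTPase activator, and 1 of 2 of the cell wall. All other products had 141, with 57 higher and 13 lower.

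Position within the leader was described by sums over all 1873 clusters on the deposited scale, and sums under the other scalings were not computed. Median-of-ratios factors, by which values are divided, were 0.868 to 0.934 in the wild type and 1.07 to 1.20 in the mutant. That scaling lowers every mutant sum and raises every wild-type sum. In the part nearest the transcript start the sum was 391 ± 47.0 TPM in the wild type against 394 ± 21.1 TPM in the mutant, with overlapping groups, and 79.96 TPM of the 445 in wild-type replicate 2 came from mei2. In the middle part it was 544 ± 23.7 and 672 ± 68.3 TPM. In the part nearest the start codon it was 631, 709 and 650.2 TPM in the wild type against 984, 916 and 961 TPM in the mutant. Every mutant library was higher on the deposited scale. Duc1 alone supplied 244 and 308 TPM there. Of the tested clusters 18 of 52 rose and 6 fell in the first part, 29 and 11 of 79 in the middle, and 24 and 6 of 56 in the last. Clusters 1000 bp or more from the transcript start summed to 58.3 ± 3.52 and 132 ± 16.5 TPM, of which the plb2 site held 24.1 and 70.6 TPM.

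**Figure D5:**
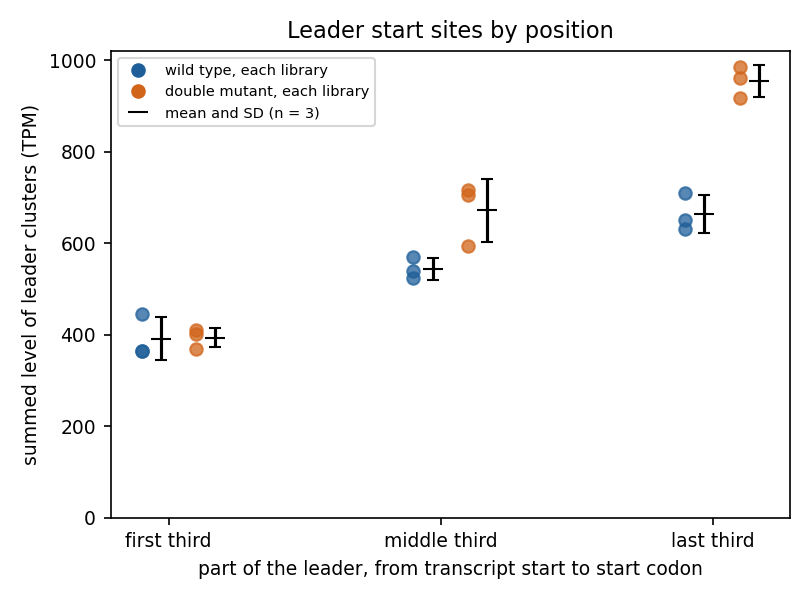
Summed level of leader clusters in TPM by equal parts of the leader from the transcript start to the start codon, with 1 point per library and the mean and SD of 3 libraries. The groups overlap in the first part, and in the last part the mutant libraries, at 916 to 984 TPM, lie above the wild-type libraries, at 631 to 709 TPM. Values are on the deposited scale only.

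Over all long-leader genes together and on the deposited scale, leader clusters held 1599 ± 82.9 TPM in the wild type against 2019 ± 65.6 TPM in the mutant. Start clusters held 14118 ± 1166 and 16995 ± 1307 TPM. The leader share was 9.49%, 11.7% and 9.51% in the wild-type libraries and 10.96%, 9.96% and 11.01% in the mutant, so the groups overlapped, with wild-type replicate 2 the highest of all. Without that library the wild-type mean was 9.50%. For leaders of 100 to under 500 bp the share was 2.10 ± 0.0590% and 2.38 ± 0.102%. Of the genes nearest the length limit, SPAC1039.01, just outside, held 5.63 ± 1.08 and 10.5 ± 1.88 TPM in its leader, and dma1 and tip1 (498 bp) 1.89 ± 0.506 and 1.45 ± 0.140, and 0.0263 ± 0.0455 and 0.0647 ± 0.0778 TPM. Just inside, top2 (501 bp) held 2.65 ± 0.482 and 17.2 ± 2.60 TPM, mrpl39 (502 bp) 1.22 ± 0.405 and 0.994 ± 0.155 TPM and gly1 (503 bp) 2.46 ± 0.261 and 2.30 ± 0.394 TPM.

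Upstream ATG codons were present in 208 of the 297 leaders, with a median of 1 and up to 42. Of the 137 tested clusters in such leaders, 51 began downstream of every upstream ATG and 31 upstream of all of them. The rising sites of SPAC32A11.02c (11 ATG codons) and stb3 (2) lay downstream of all of them, as did the duc1 site (15), which passed in neither direction. The falling srk1 site lay downstream of 8 of 12. Whether any of these codons is translated was not tested.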

How the data were processed

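CAGE was measured in 6 libraries of total RNA. The submitters' processing notes list build ASM294v2 and the tools Bowtie 0.12.7, bedtools 2.15.0 and CASAVA 1.6. The authors deposited RPM values, named TPM (tags per 1000000 library tags), for 1 common set of clusters, so a shift inside a cluster cannot be seen. A pooled score per cluster, a signal the authors deposited, was not used. Between 99.7% and 99.8% of values above 0 were whole tags (tolerance 0.02). Floors of 3 tags per group were 0.0571 and 0.0452 TPM and cover counting error only.

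The annotation used was ASM294v3. With chromosomes cut into 4 equal parts, a pyrimidine-purine step was found at 96.4% to 100% of start clusters from 5 TPM up in each part, 1 bp upstream of the summit, against 23.1% of genome positions, so coordinates were used as deposited, counted from 1. A start cluster is the highest with its summit within 50 bp of the transcript start, and start sums add all of these.

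Members, gene lists and the rule for named genes were chosen with earlier results of these data known. Named are the 10 highest wild-type clusters, the 10 largest rises and falls with groups apart, the 6 largest rises and falls of leader share, the 5 highest genes with leader above start, the 5 longest leaders and the listed regulators. Plain folds and means are in TPM, and log2 changes understate low clusters. In product classes gef, gap, rho and ras were matched as whole words. Genes just inside and outside the length limit, scd2, git3, ipk1, SPCC794.06, mug165, ppk15, gpa2, pma1, SPBC1271.10c's start and the class members cuf1, res1 and gap1 were named after their values were seen. Tests used limma 3.58.1, two-sided, tested on simulated data, with edgeR 4.0.16 and DESeq2 1.42.0 on recovered tags as alternatives. Alternatives also covered pseudocounts, filters, scalings, windows, leader lengths, leaving out each library and a replicate block.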

Additional observations from a re-analysis of the deposited data

How the results depend on the processing

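Calls of leader clusters in every alternative fit kept their direction where shared with the main one (0 reversed). Not all were shared: of the 94 main calls, 63 were also made with median-of-ratios scaling, 66 with TMM, 64 with edgeR and 62 with DESeq2. A mean of at least 5 TPM left 23 higher and 5 lower of 61 leader clusters tested, and 19 lower of 220 start clusters. No filter gave 214 higher and 53 lower of 1873 leader clusters. Counts among all clusters were not made under these filters. Other scalings gave 40, 43, 41 and 39 higher leader clusters (median-of-ratios, TMM, edgeR, DESeq2), and start clusters of 20 higher and 72 lower, 19 and 72, 21 and 71, and 21 and 74. No such counts were made for the starts of all coding genes. Leaders of at least 300 bp had 132 higher of 318 tested clusters, and those of at least 1000 bp 20 higher and 8 lower of 66. The pooled share was then 6.39% and 7.52%, and 20.4% and 22.5%, for wild type and mutant, and 9.75% in the mutant with windows of 100 bp. Shares lower numbered 10 of 236 with a pseudocount of 0.1, with no such count made for all genes. With each library left out, leader clusters were 50 to 72 higher and 19 to 23 lower, start clusters 29 to 50 and 20 to 31, and shares 40 to 61 and 10 to 19. Those over 1.5 times from the value with all libraries were 29 starts higher and 11 shares lower without mutant replicate 2, and 10 shares lower without mutant replicate 3. The pooled share was 9.50% to 10.6% in the wild type and 10.5% to 10.98% in the mutant. Deviations of same-numbered libraries from their group means were negatively correlated (r -0.177, -0.155 and -0.254 for replicates 1 to 3). Positive correlations joined wild-type replicate 1 with mutant replicate 2 (0.351), wild-type 3 with mutant 1 (0.344) and wild-type 2 with mutant 3 (0.289). Deviations from a group mean cancel within the group, so a mix of signs for each library follows from the arithmetic. Whether these pairs share anything was not tested. A replicate block, set by equal numbers and so not by these pairs, gave 60 higher and 21 lower leader clusters, 36 and 22 start clusters, and 43 and 11 shares. Among named values, signs turned for 3 uncalled ones. Duc1 went to -0.0035 with TMM. Hem1 went to -0.25, -0.25, -0.24 and -0.24 with the other scalings and tools, and ranged from -0.046 (without mutant replicate 3) to 0.23 with each library left out. Mei2 ranged from -2.58 to 0.79 with each library left out, the latter without wild-type replicate 2, and was -4.71 in edgeR (adjusted p = 0.0490). The cause was not tested. Counting error limits clusters near 1 TPM most.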
